A study of Homo sapiens with 2 samples.

Results

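The AP-1 transcription factors described here are 10 genes, JUN, JUNB, JUND, FOS, FOSL1, FOSL2, ATF2, ATF3, JDP2 and BATF3, taken by gene symbol from the 13137 genes of the deposited table. Their transcripts were counted in A549, a human lung adenocarcinoma cell line. The cells carried a doxycycline-inducible hairpin, either shRNA-SOX2, directed at the transcription factor SOX2, or shRNA-Con, with a scrambled sequence, and both were given doxycycline for 4 days. Each line was a puromycin-selected polyclone made with 1 hairpin, and 1 library was profiled per condition, so no spread between cultures was measured. The comparison asks which of these genes differed in level when the SOX2 hairpin was induced. The value columns are named by abbreviations, in which SC was taken for shRNA-Con and S1 for shRNA-SOX2.

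AP-1 is not a single protein but a family of dimers of basic leucine zipper (bZIP) proteins. JUN proteins pair with each other or with FOS proteins, while FOS proteins need a JUN partner, and ATF and JDP proteins pair with JUN or among themselves. The dimers bind the TPA response element TGACTCA or the cyclic AMP response element TGACGTCA, and JUN and ATF2 are known to act through the related site TGACATCA in the JUN promoter. FOS and JUN are immediate early genes that growth factors and stress raise through MAP kinases, and in lung epithelium and its tumours AP-1 is known for its part in growth, invasion and inflammation.

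Promoter windows were taken from RefSeq (GRCh38.p14), from 250 bases before to 50 bases after a gene's start. A window was found for 7 members, 10 windows in all, and FOSL1, ATF2 and BATF3 had none. Both strands were searched for TGACTCA, TGACGTCA, TGACATCA, the SOX core CATTGT and the CArG box. The matches below are shown because they link members of the family through its own binding sites. The matched letters are in capitals with 10 bases on each side, read 5′ to 3′ on the strand of the gene. Those of JUN (chr1:58784097-58784124, minus strand) and ATF3 (chr1:212565274-212565301, plus strand) hold TGACATCA, beginning 67 and 123 bases before the start. That of JUND (chr19:18281805-18281832, minus strand) holds TGACGTCA, beginning 200 bases before the start, and that of FOSL2 (chr2:28392852-28392878, plus strand) holds TGACTCA at bases 5 to 11 after it.
JUN: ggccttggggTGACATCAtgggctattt
ATF3: acctatgataTGACATCAtatggccact
JUND: gccgcccccaTGACGTCAacccacaagg
FOSL2: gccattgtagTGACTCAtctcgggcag

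Among the 15435 windows of genes in the table, TGACATCA was found in 1.54%, TGACGTCA in 2.73% and TGACTCA in 3.57%. The SOX core, found in 6.81% of these windows, was present in that of FOSL2 only, across its start. No CArG box was found in the 10 windows, against 1.1% of all. The windows of FOS, JUNB and JDP2, and the other window of ATF3, held none of the 5 motifs. These matches describe the letters of the windows, bases further upstream were not searched, and no binding was measured.

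Gene tags numbered 2304184 in the shRNA-Con library, called the control library below, and 2093816 in the shRNA-SOX2-labelled library. The targeted gene SOX2 had 16 control tags and 23 in the shRNA-SOX2-labelled library, which is a ratio of 1.58 (95% interval 0.80 to 3.20), so its mRNA was not seen to be lower there, and the library is called by its label throughout. A list of 12 epithelial markers, with ALDH1A1 counted among them, had 29626 and 36928 tags over the 11 found in the table. Most of these tags came from KRT7, KRT8, KRT18 and ALDH1A1. Those of blood cells, endothelium and fibroblasts summed to 64 tags in the control library and 75 in the other library over 16 genes, and CD3E, HBB, CDH5, VWF, COL1A2, COL3A1 and DCN were not listed. Of the epithelial genes 3 were higher and 3 lower past the threshold given below, and of the 8 listed markers of other cells none was. ALDH1A1, an aldehyde dehydrogenase abundant in A549, went from 7035 to 14268 tags, KRT8 from 7702 to 12729 and KRT19 from 35 to 127, while KRT7 went from 3899 to 1606. CLDN1 went from 577 to 253 and CDH1 had 50 tags in each library. Other epithelial genes of the list were near 0, since EPCAM had 8 and 4 tags, CLDN4 and CLDN7 each 0 and 2, and ESRP1 2 and 0.

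Over the 10 members, FOS was the one gene that rose in the shRNA-SOX2-labelled library, and JUN, JUNB, FOSL1 and ATF2 fell. The remaining 5, JUND, FOSL2, ATF3, JDP2 and BATF3, did not pass the threshold. Fisher's exact test, two-sided, was run per gene against the remaining gene tags, with p-values adjusted by Benjamini-Hochberg over all 13137 genes, with the study's threshold of FDR 0.001. The test compares these libraries and not the conditions, and every interval covers counting error only. Calls were common in this comparison, with 21.7% of all genes past the threshold, 9.53% higher and 12.2% lower. The balance depends on the scaling, since among genes with 20 or more tags 12.2% were higher and 15.8% lower with gene tags, and 9.81% and 19.9% with all clean tags. Genes with many tags pass more easily, and among the 6237 genes with at least 100 tags 16.6% were higher and 22.5% lower. Of the 8 members with at least 100 tags, 4 were called. The median log2 fold change of all 10 members, with BATF3 at 10 tags included, was -0.96. Of the 9 members with at least 20 tags, the middle value was that of JUNB, -0.85. For the 10045 genes that had at least 20 tags the median was -0.10. In bulk libraries such as these, fewer cells with a transcript and fewer copies per cell cannot be told apart.

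**Figure D1:**
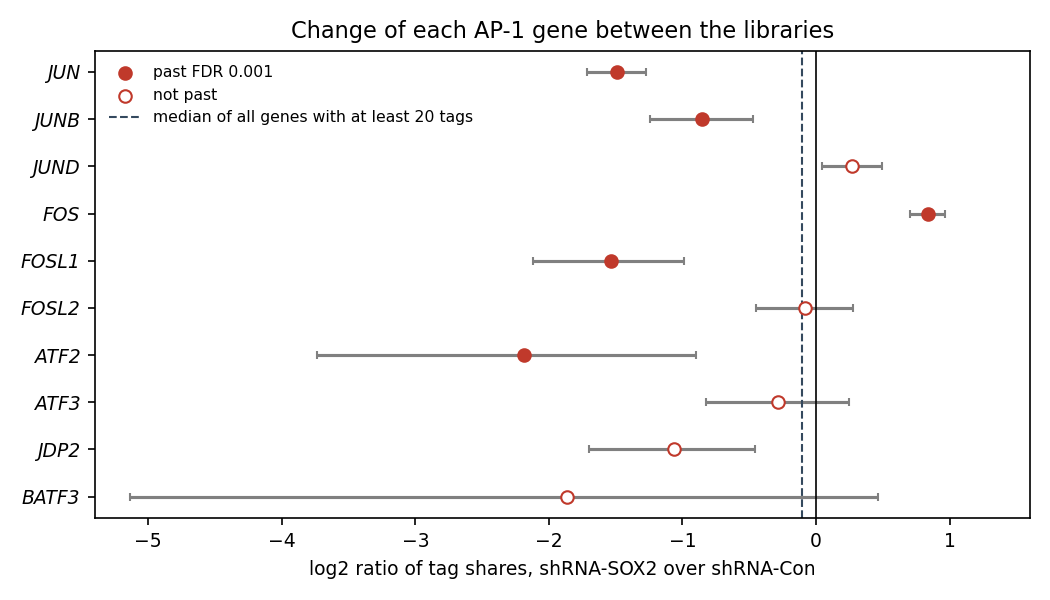
Log2 ratio of tag shares, the shRNA-SOX2-labelled library over shRNA-Con, for each AP-1 gene, with 95% intervals from counting error (1 library per condition). Filled points are past FDR 0.001 in Fisher's exact test, open points are not, and the dashed line marks the median of all genes with at least 20 tags, -0.10; FOS alone of the filled points lies to the right of 0.

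JUN, the founding member of the family and the target of JUN N-terminal kinases, had 697 tags in the control library and 225 in the shRNA-SOX2-labelled library. Per 1000000 gene tags this is 302 (95% interval 280 to 326) against 107 (93.9 to 122). JUN thus fell 2.81-fold (2.42 to 3.29, adjusted p = 9.68e-46, Fisher's exact test). Of the 772 genes with at least as many tags as JUN, 29 had a lower log2 fold change than its -1.49.

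JUNB, a JUN protein that is a weaker activator than JUN on many promoters, had 171 tags in the control library and 86 in the other library. It fell 1.81-fold (1.39 to 2.37, adjusted p = 3.79e-05, Fisher's exact test). JUND, the most evenly expressed of the JUN proteins across tissues, had 319 and 349 tags. Its ratio of 1.20 (1.03 to 1.41) did not pass the threshold (adjusted p = 0.0485, Fisher's exact test). Among the JUN genes, the order of levels was therefore JUN, JUND, JUNB in shRNA-Con and JUND, JUN, JUNB in the shRNA-SOX2-labelled library, and within each library the intervals of these 3 genes did not overlap.

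FOS, which cannot act as a dimer without a partner such as JUN, had 786 tags in the control library and 1274 in the shRNA-SOX2-labelled library. This corresponds to 341 (318 to 366) and 608 (576 to 643) per 1000000 gene tags, a rise of 1.78-fold (1.63 to 1.95, adjusted p = 1.21e-36, Fisher's exact test). FOS had the most tags of the family in both libraries, and 32 of the 261 genes with at least as many tags had a higher log2 fold change than its 0.83.

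FOSL1, the FOS-related antigen linked with invasive carcinoma cells, moved the opposite way to FOS, with 115 tags in the control library and 36 in the shRNA-SOX2-labelled library. It fell 2.90-fold (1.98 to 4.35, adjusted p = 2.40e-08, Fisher's exact test), and 162 of the 4866 genes with at least as many tags had a lower log2 fold change. FOSL2, the other FOS-related antigen, had 139 and 119 tags. Its ratio was 0.942 (0.731 to 1.21), and changes smaller than these bounds could not be seen with so few tags.

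**Figure D2:**
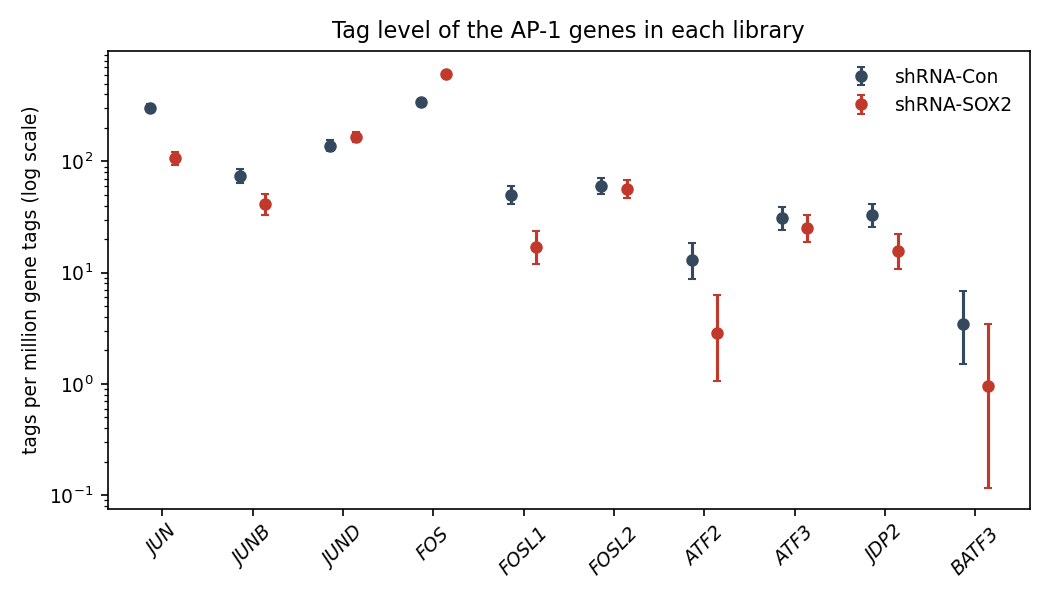
Tags per 1000000 gene tags (log axis) of the 10 AP-1 genes in each library, with 95% Clopper-Pearson intervals from counting error. FOS and JUN stand at 341 and 302 in shRNA-Con and lie apart at 608 and 107 in the shRNA-SOX2-labelled library.

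ATF2, a target of JUN N-terminal and p38 kinases that pairs with JUN on the TGACATCA site shown above, was low in both libraries, with 30 tags in the control library and 6 in the other. It fell 4.54-fold (1.86 to 13.4, adjusted p = 0.000751, Fisher's exact test). This call rests on few tags and on the scaling, since with TMM factors in place of total gene tags its adjusted p was 0.00141 in Fisher's exact test. ATF3, which many kinds of stress induce, also carries TGACATCA in the window shown above but not in its other window. It had 71 and 53 tags and a ratio of 0.821 (0.564 to 1.19). JUN and ATF3 share this motif in a window, and their tags differed in their change. Tags were counted per gene, so they cannot be tied to the start at which the motif lies. The ratio of JUN to ATF3 went from 9.82 to 4.25, a change of 0.432-fold (0.289 to 0.651).

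JDP2, a repressor of AP-1 that pairs with JUN, had 76 tags in the control library and 33 in the shRNA-SOX2-labelled library. The ratio was 0.478 (0.308 to 0.728) and the adjusted p of 0.00151 in Fisher's exact test fell short of the threshold. With the libraries scaled by all clean tags JDP2 passed it (adjusted p = 0.000251, Fisher's exact test). BATF3, known for its role in dendritic cells, had 8 and 2 tags, and its ratio of 0.275 (0.0285 to 1.38) allows changes in both directions.

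Summed over the family, the share of gene tags was close in the libraries. The 10 genes had 2412 tags in the control library and 2183 in the shRNA-SOX2-labelled library, or 1047 (1005 to 1089) and 1043 (999 to 1087) per 1000000 gene tags. The log2 ratio of the sums was -0.01, and the interval of the ratio ran from 0.940 to 1.06. The sign of this small difference depends on the scaling, with a ratio of 1.05 (0.988 to 1.11) under TMM factors and 0.921 (0.869 to 0.976), an interval below 1, under clean tags. The near equality rested on FOS, since the other 9 genes together went from 1626 tags to 909, a ratio of 0.615 (0.567 to 0.668). The make-up of the pool differed accordingly. FOS held 32.6% (30.7 to 34.5) of the family's tags in the control library and 58.4% (56.3 to 60.4) in the shRNA-SOX2-labelled library, while the share of JUN went from 28.9% (27.1 to 30.8) to 10.3% (9.06 to 11.7). By subfamily, the tags of the JUN genes went from 49.2% to 30.2% of the pool and those of the FOS genes from 43.1% to 65.5%.

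**Figure D3:**
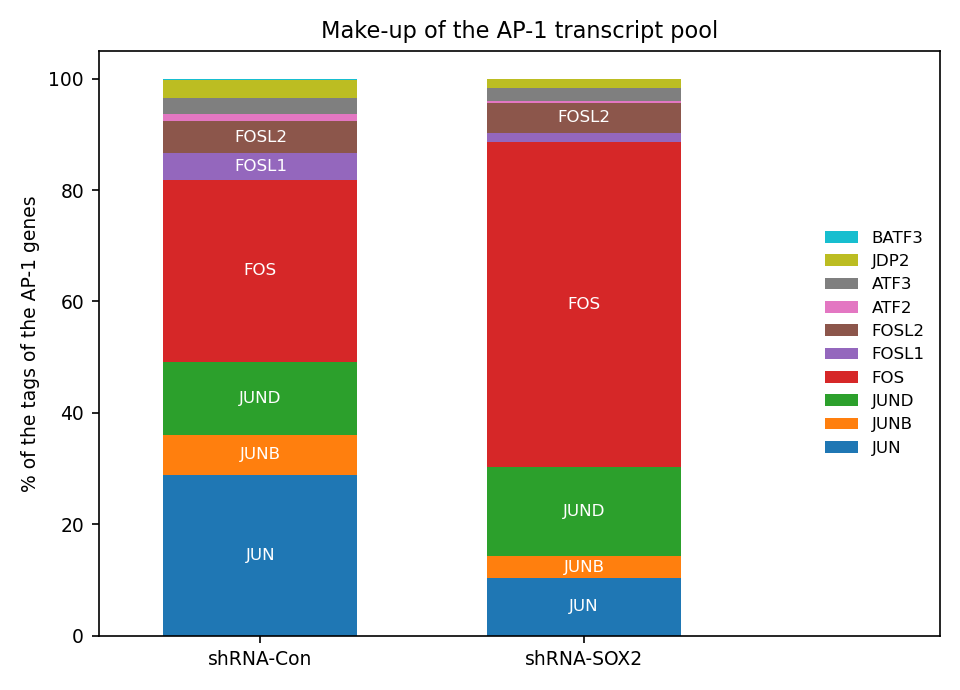
Share of each gene in the tags of the 10 AP-1 genes, in % of the family's 2412 tags in the control library and 2183 in the shRNA-SOX2-labelled library. The FOS segment takes 32.6% and 58.4%, and the JUN segment 28.9% and 10.3%.

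Ratios between members do not depend on how the libraries are scaled. For each FOS tag there were 0.887 JUN tags in the control library and 0.177 in the shRNA-SOX2-labelled library, a 5.02-fold lower ratio (95% exact interval 4.20 to 6.01). FOS to FOSL1 went from 6.83 to 35.4, and JUN to JUND from 2.18 to 0.645. Of the 45 pairs of members, the interval of the change in ratio, taken pair by pair at 95%, left out 1 in 23, which included all 9 pairs with FOS. Among the 4 genes called lower, 5 of the 6 pairs had an interval that held 1. The exception was JUN to JUNB, which went from 4.08 to 2.62, a change of 0.642-fold (0.471 to 0.878). The ratio of JUN to FOSL1 was 6.06 and 6.25, a change of 1.03-fold with an interval from 0.681 to 1.59.

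The tags behind these ratios place FOS and JUN mRNA among the abundant transcription factor mRNAs of the cell. A digital gene expression tag is taken once from each captured mRNA, so that its number does not grow with transcript length. By tags, FOS was number 11 and JUN number 12 of the 617 genes that the Gene Ontology column of the table annotates as sequence-specific DNA-binding transcription factors in the control library. In the shRNA-SOX2-labelled library, FOS was number 3 and JUN number 48. JUND went from 42 to 25, and FOSL1 from 141 to 266. Of the 607 annotated genes outside the family, 38 (6.26%) were higher and 73 (12.0%) lower past FDR 0.001, against 9.53% and 12.2% of all genes. The median log2 fold change of these annotated genes with at least 20 tags was -0.16, against -0.10 for all genes with as many.

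**Figure D4:**
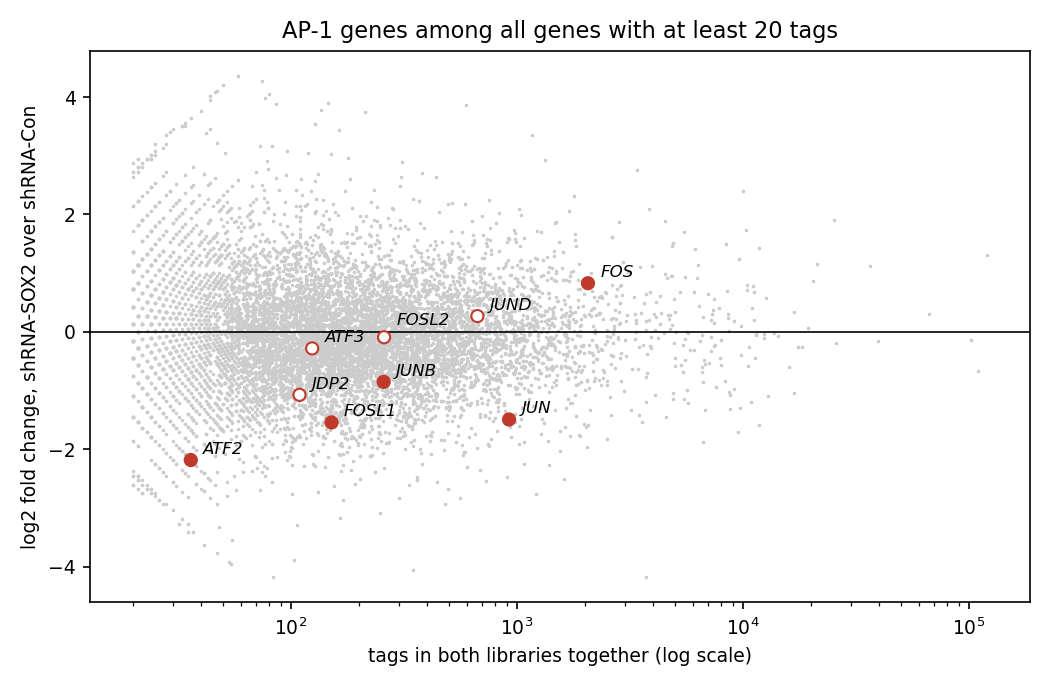
Log2 fold change, the shRNA-SOX2-labelled library over shRNA-Con, against the tags of both libraries together (log axis), for all 10045 genes with at least 20 tags (grey) and the 9 AP-1 genes among them (filled if past FDR 0.001). FOS lies above 0 at 2060 tags and JUN below 0 at 922.

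The genes of other bZIP proteins, from a list written from gene symbols, moved mainly one way. Of 19 listed in the table, 8 were lower past FDR 0.001 and 0 higher, so that 42.1% were lower against 12.2% of all genes, with a median log2 fold change of -0.83 over the 13 with at least 20 tags. MAFK, a small MAF protein that pairs with NFE2L2, fell from 654 tags to 235 (log2 fold change -1.34), and MAFG, of the same group, fell from 303 to 163 (-0.76). BACH1, a repressor that pairs with the small MAF proteins, went from 29 tags to 4, with a ratio of 0.152 (0.0388 to 0.432). FOSB, the remaining FOS protein, named here after its values were seen, had 189 tags in the control library and 207 in the shRNA-SOX2-labelled library and did not pass (adjusted p = 0.146, Fisher's exact test).

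Of 29 genes for MAP kinases and upstream kinases, 1 was higher and 2 were lower, so that 10.3% passed against 21.7% of all genes. Many of the 29 had few tags, and the median log2 fold change, -0.08 over the 25 with at least 20 tags, is taken over genes that went both ways. MAP3K3 rose from 29 to 68 tags, while MAP3K11, an upstream kinase of the JUN N-terminal kinases, fell from 128 to 53, and MAP2K1, the kinase of ERK, fell from 131 to 67. Among 23 genes for AP-1 turnover, cofactors and MAP kinase phosphatases, 1 was higher and 5 were lower, or 26.1% in all. FBXW7, a ubiquitin ligase subunit that targets JUN, rose from 15 tags to 47, a ratio of 3.45 (1.89 to 6.64). DUSP5, a phosphatase of ERK, fell from 383 to 59 tags (log2 fold change -2.56). DUSP1 fell from 714 to 403 tags and CSNK2A1, a subunit of casein kinase 2, from 339 to 212.

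Genes known as AP-1 targets went both ways. Of 40 listed, 14 were lower, 9 higher and 17 did not pass. This is 35.0% lower and 22.5% higher, against 12.2% and 9.53% of all genes. Genes with more tags pass more easily, and 36 of the 40 had at least 20 tags. Of all genes with at least 20 tags 15.8% were lower and 12.2% higher, and of those with at least 100 tags 22.5% and 16.6%. With calls in both directions, the median log2 fold change was -0.10. PLAU, the urokinase protease, fell from 224 tags to 24, a ratio of 0.118 (0.0740 to 0.180). FTH1, a ferritin chain, fell from 69683 tags to 39799 and KRT18, a keratin, from 10318 to 7887. SPP1, the secreted protein osteopontin, rose from 343 to 1130 tags, a ratio of 3.63 (3.21 to 4.10). FTH1 and KRT18 have processed pseudogenes, and how shared tags were counted is not given in the sources used here.

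Of 27 other immediate early genes, 8 were lower and 2 higher, or 37.0% in all. This is 29.6% lower and 7.41% higher, against 12.2% and 9.53% of all genes. Among all genes with at least 100 tags, which pass more easily, 22.5% were lower and 16.6% higher. The median log2 fold change of the immediate early genes with at least 20 tags was -0.34. BTG2, an antiproliferative gene, rose from 32 to 104 tags, and the other gene called higher, EGR3, had 2 and 19. KLF4 fell from 81 to 18 tags, IER3 from 488 to 267 and ZFP36L1, a protein that binds AU-rich elements, from 615 to 441. Of 21 listed stress response genes, 11 were lower and 1 higher, or 57.1% in all, against 21.7% of all genes. The lower genes made up 52.4% of this list, against 22.5% of all genes with at least 100 tags. The median log2 fold change of the list was -1.02, while ATF3, a member that stress induces, did not pass. TRIB3, a pseudokinase induced by ATF4, fell from 3545 tags to 178 (log2 fold change -4.18) and HSPA5, an endoplasmic reticulum chaperone, from 7458 to 2082. EIF2AK4, a kinase of the same response, rose from 50 to 103.

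**Figure D5:**
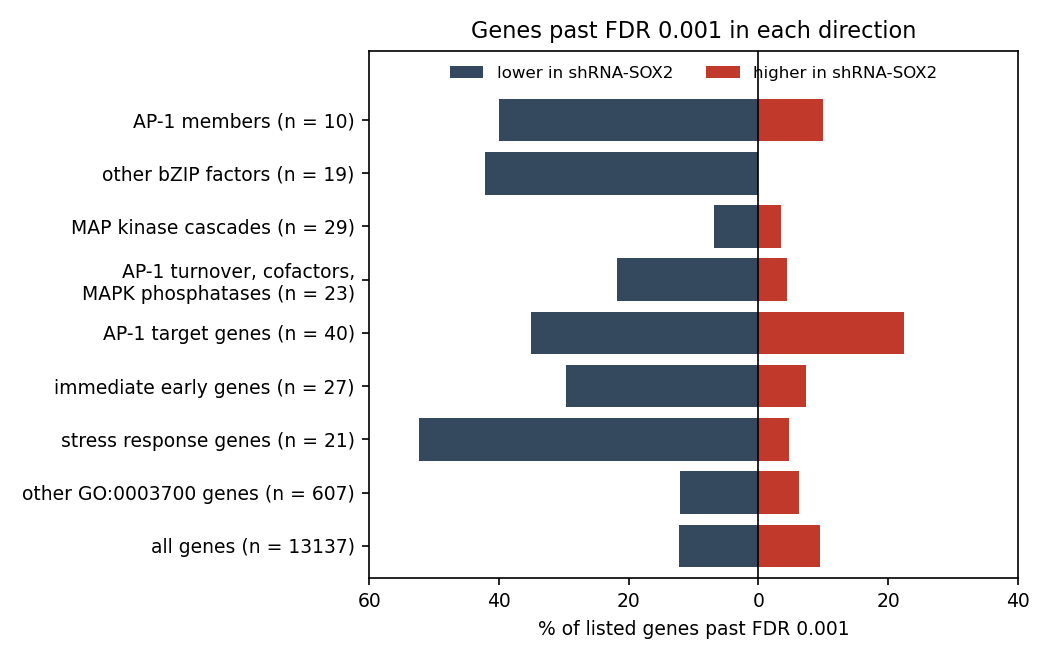
Share of listed genes past FDR 0.001 (%), lower in the shRNA-SOX2-labelled library to the left and higher to the right, for the AP-1 members, the related lists, the other genes annotated as transcription factors and all genes. Of the AP-1 members 4 of 10 were lower and 1 higher, and of all genes 12.2% were lower and 9.53% higher.

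The members lie on 5 chromosomes in GENCODE release 29 (GRCh38). JUN, ATF3 and BATF3 are on chromosome 1, FOSL2 and ATF2 on 2, FOSL1 on 11, FOS and JDP2 on 14, and JUNB and JUND on 19. FOS and JDP2 are 145 kb apart, and their tags went from 786 to 1274 and from 76 to 33. ATF3 and BATF3 are 65.6 kb apart and neither passed the threshold. JUN and JUNB are annotated with 1 exon, while the FOS transcripts have up to 4 and those of ATF2 up to 17. The pentamer ATTTA, the core of AU-rich elements that mark short-lived mRNAs, occurs at least once in the longest annotated 3′ UTR of all 10 members, against 74.6% of 9071 genes with at least 20 tags. FOS has 5 in 806 bases, or 6.20 per kb, against a median of 1.73 per kb over these genes. JUNB has 4.00 per kb, JUN 2.33 and FOSL1 1.19, so that genes that fell lay on both sides of the median.

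The calls take the spread between cultures as 0, and 1 library per condition cannot measure it. When a biological coefficient of variation of 0.1 was assumed in edgeR's exact test, JUN (adjusted p = 1.23e-08) and FOSL1 (adjusted p = 8.92e-05) passed FDR 0.001, FOS did not (adjusted p = 0.00121), and 8.88% of all genes passed. With a coefficient of 0.2, 0 of the 10 members and 0.860% of all genes passed, and JUN had an adjusted p of 0.0166. When Fisher's exact test was combined with a minimum log2 fold change of 1 in either direction, JUN, FOSL1 and ATF2 passed, with 12.0% of all genes.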

How the data were processed

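Digital gene expression was profiled in 2 libraries of A549 cells, 1 per condition, from 4 µg of total RNA each, with oligo(dT) selection, at the Beijing Genomics Institute. The authors deposited tag counts per Entrez Gene ID, not normalized, and TPM values per 1000000 clean tags with a count of 0 written as 0.01. The submitters' processing notes name the genome build hg19, and the aligner is not given in the sources used here. Deposited columns with log2 ratios, p-values and FDR compare the libraries and were not used.

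Log2 fold changes were taken after division by total gene tags, with counts below 3 set to 3. Tests were Fisher's exact tests over all genes, and intervals were Clopper-Pearson at 95%. The members and lists were chosen with earlier results of these data known. The genes named from each list were the 2 with the most tags among those past FDR 0.001 and the largest rise and fall among those with more than 3 tags in both libraries. The comparison with genes annotated as transcription factors, the limit of 100 tags and the ATTTA counts were chosen after seeing the data. Fisher's exact test and the interval of the ratio were tested on simulated counts that had no spread between cultures. A planned comparison of protein sequences was not made. Python 3.11.15, scipy 1.17.1, R 4.3.3, edgeR 4.0.16 and DESeq2 1.42.0 were used.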

Additional observations from a re-analysis of the deposited data

How the results depend on the processing

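No paired analysis was possible because only 1 library was made for each condition, and no library could be left out. Depth limits BATF3 and ATF2, with 10 and 36 tags in all. Of the 10 members, 5 were past FDR 0.001, 1 higher and 4 lower. With TMM factors or the median ratio ATF2 was no longer called, with clean tags JDP2 was added, and no member changed direction under these or with 0.5 tags added. A minimum of 10 tags gave the same count. An assumed coefficient of variation of 0.1 left 2 members, 0 higher and 2 lower, and 0.2 or 0.4 left 0 in both directions by edgeR's exact test, where 5 and 1 members had an unadjusted p under 0.05. FDR 0.05 gave 2 higher, and a minimum log2 fold change of 1 in size left 3 members and 0 higher. The log2 ratio of the summed tags, -0.01, was -0.12 with clean tags and turned to 0.07 with TMM factors and 0.06 with the median ratio. The median log2 fold change of all genes with at least 20 tags was -0.10 as reported, -0.03 under TMM factors and -0.22 under clean-tag scaling. With an assumed coefficient of 0.2, the calls went from 8 to 0 for other bZIP genes, 3 to 0 for kinases, 6 to 1 for turnover genes, cofactors and phosphatases, 23 to 2 for targets, 10 to 0 for immediate early genes, 12 to 2 for stress genes and 6 to 0 for epithelial markers, and TMM factors or clean tags kept each of these counts within 1.5 times. The loss follows from the assumed spread.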

Other observations

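Some other bZIP genes of the cyclic AMP response group were lower in the shRNA-SOX2-labelled library. CREB1, its best known member, went from 140 to 41 tags (log2 fold change -1.63), CREM from 147 to 38 (-1.81) and ATF1 from 118 to 59 (-0.86), and all 3 were past FDR 0.001 in Fisher's exact test. ATF7, with 51 and 39 tags, and CREB5, with 6 and 9, did not pass. NFE2L2, the regulator of the antioxidant response, went from 225 to 100 tags (-1.03). Its known targets went different ways. NQO1 rose from 4179 to 6200 tags and HMOX1 from 3437 to 5039, while GCLC fell from 463 to 293 and FTH1 from 69683 to 39799. GCLM, with 413 and 347 tags, did not pass. These genes were picked after their values were seen.

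Secreted proteins on the list of AP-1 targets went both ways, and some cytokines and growth factors among them were lower in the shRNA-SOX2-labelled library. IL11 had 311 control tags and 49 in that library, CXCL8 (listed as IL8) had 216 and 53, AREG had 368 and 94, and VEGFA had 309 and 67, each past FDR 0.001 in Fisher's exact test. CCL2, with 74 and 94 tags, did not pass. Other secreted proteins on the list were higher past FDR 0.001. These were SPP1, given above, TIMP1 with 483 and 886 tags, FN1 with 980 and 1102, and LAMB3 with 78 and 158. These were also named after their values were seen, and whether they follow the change in JUN or FOSL1 was not tested.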
